A study of Mus musculus with 17 samples.

Results

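Reactive astrocyte genes were examined in bulk RNA-seq libraries of cultured mouse astrocytes. The set has 31 genes, chosen by symbol from panels of genes that mark the response of astrocytes to injury: 10 pan-reactive genes, 10 genes tied to neuroinflammation (A1) and 11 genes tied to ischemia (A2). All 31 were found among the 56691 gene rows of the count table. The A1 and A2 names are used here only as labels of the panels. The 17 libraries came from C57BL/6 astrocytes purified by immunopanning from whole brain without olfactory bulbs and cerebellum, which the methods give as taken at postnatal day 2, and every culture was kept in a serum-free medium with HB-EGF. In 1 experiment, 3 cultures received SAG, a small-molecule agonist of the Sonic hedgehog transducer Smoothened, at 500 ng/ml and 3 received its solvent DMSO, from day 3 in vitro and for 3 days. In the other, 4 cultures received FGF2 and 3 received FGF10, both at 50 ng/ml, and 4 received PBS, from day 2 in vitro and for 7 days. For FGF2 the methods speak of 3 replicates and the labels of 4, and none was left out. No group received an injury or an inflammatory stimulus, and the cells were grown without added neurons or microglia.

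Astrocytes respond to injury, infection and loss of blood flow by changing shape and gene expression. Cytokines from microglia and other cells, such as interleukins, tumor necrosis factor and interferons, act on astrocyte receptors and drive STAT, NF-kappaB and AP-1 transcription factors, which bind the promoters of many reactive genes. The pan-reactive panel holds genes induced by both kinds of injury, and the A1 panel is rich in antigen presentation and complement control. The A2 panel used here mixes a cytokine with genes of enzymes, membrane proteins and pattern recognition. Immunopanning without serum was designed to keep astrocytes in a quiet state, so the level of these genes is a usual check of such cultures.

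Promoters of 3 of the genes are printed because they carry the letters of these factors and the genes stood at different ends of the range: *Cxcl10* was found in few libraries, *Emp1* in every library and *Tgm1* in none. Each run holds the 250 bases before and 50 bases after a RefSeq transcription start, 5′ to 3′ on the strand of the gene, with coordinates in GRCm38.p6. Capitals mark the motifs searched for on both strands, which were a STAT motif (TTCNNNGAA), an AP-1 motif (TGANTCA), an NF-kappaB motif (GGANTTTCC) and an interferon-response motif (GAAANNGAA).
Cxcl10 promoter, chr5:92348840-92349139, minus strand: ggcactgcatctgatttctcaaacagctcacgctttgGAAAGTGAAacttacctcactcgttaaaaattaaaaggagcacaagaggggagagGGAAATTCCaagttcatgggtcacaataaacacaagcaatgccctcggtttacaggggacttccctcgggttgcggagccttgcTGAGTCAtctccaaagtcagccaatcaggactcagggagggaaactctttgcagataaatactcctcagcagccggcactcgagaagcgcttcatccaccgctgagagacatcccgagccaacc
Emp1 promoter, chr6:135362681-135362980, plus strand: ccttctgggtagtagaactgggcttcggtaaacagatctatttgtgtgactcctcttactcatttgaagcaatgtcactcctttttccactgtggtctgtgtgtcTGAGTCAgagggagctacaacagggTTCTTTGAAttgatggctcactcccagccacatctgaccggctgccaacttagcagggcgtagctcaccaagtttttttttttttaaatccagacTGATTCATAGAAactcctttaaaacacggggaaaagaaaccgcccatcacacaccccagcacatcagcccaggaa
Tgm1 promoter, chr14:55713443-55713742, minus strand: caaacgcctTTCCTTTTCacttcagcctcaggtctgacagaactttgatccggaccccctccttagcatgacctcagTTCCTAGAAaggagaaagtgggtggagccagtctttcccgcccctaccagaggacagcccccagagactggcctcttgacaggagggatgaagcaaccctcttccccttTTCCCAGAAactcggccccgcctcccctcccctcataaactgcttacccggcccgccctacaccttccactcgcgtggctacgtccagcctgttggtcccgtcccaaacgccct

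The *Cxcl10* promoter held 1 interferon-response, 1 NF-kappaB and 1 AP-1 motif, the *Emp1* promoter 2 STAT and 2 AP-1 motifs, of which 1 pair overlaps, and the *Tgm1* promoter 1 interferon-response and 2 STAT motifs. RefSeq promoters were matched for 27 of the 31 genes, with 36 starts in all. The STAT motif was present in 6 of the 36 (16.7%) and in 8.3% of 32851 promoters of all genes, and the AP-1 motif in 6 (16.7%) against 7.81%. The interferon-response motif was present in 9 (25%) against 8.56%, and the NF-kappaB motif in 1 (2.78%), that of *Cxcl10*, against 1.25%. A match is a string of letters and not a bound site, and several starts belong to 1 gene.

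Libraries held 17481727 to 68342287 counts on genes, with a median of 37173676. Levels are CPM, counts scaled to the normalized total of a library, after TMM normalization over the 17 libraries, and because reads come from the 3′ end of transcripts they do not scale with transcript length. The 12 astrocyte markers summed to 4516 to 6550 CPM in every library, and *Hepacam*, the antigen used to select the cells, was at 78.5 to 221 CPM. Of 14 microglia or macrophage markers, *Csf1r*, *C1qb*, *Aif1*, *Trem2* and *Mrc1* were at 0 in all 17 libraries, and the list summed to 0 to 45.5 CPM. The highest of these sums was in SAG 1, where *C1qc* was at 19.9 CPM and *Cd68* at 19.2 CPM, and the next highest was 11.3 CPM in FGF2 1. In bulk RNA, fewer cells of a type and less RNA per cell cannot be told apart. The replicates are described as biological in the methods.

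Of the 31 reactive genes, 24 had a mean count of at least 10 over the 17 libraries, 4 had some counts with a mean under 10, and 3 had no count in any library. The 3 silent genes were *Lcn2*, which encodes the secreted siderophore-binding protein lipocalin 2 and is among the most strongly induced genes of reactive astrocytes, *Tgm1*, a transglutaminase, and *Slc10a6*, a transporter of sulfated steroids. A count of 0 in 691486174 counts allows a level of up to 0.00434 CPM, counting 3 reads as the limit and covering counting error only. The genes with a mean under 10 were *Sphk1*, which makes sphingosine 1-phosphate (mean 9.29 counts), *Srgn*, a proteoglycan core protein (7.12), *Steap4*, a metalloreductase (5.53), and *H2-T23*, a nonclassical class I gene (1.29). All 94 counts of *Steap4* came from PBS 2. The nearest gene above the limit of 10 was *Hspb1*, a small heat shock protein, with a mean of 15.2 counts. By panel, 8 of 10 pan-reactive, 8 of 10 A1 and 8 of 11 A2 genes reached a mean of 10, and each A1 gene had at least 1 library with counts.

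**Figure D1:**
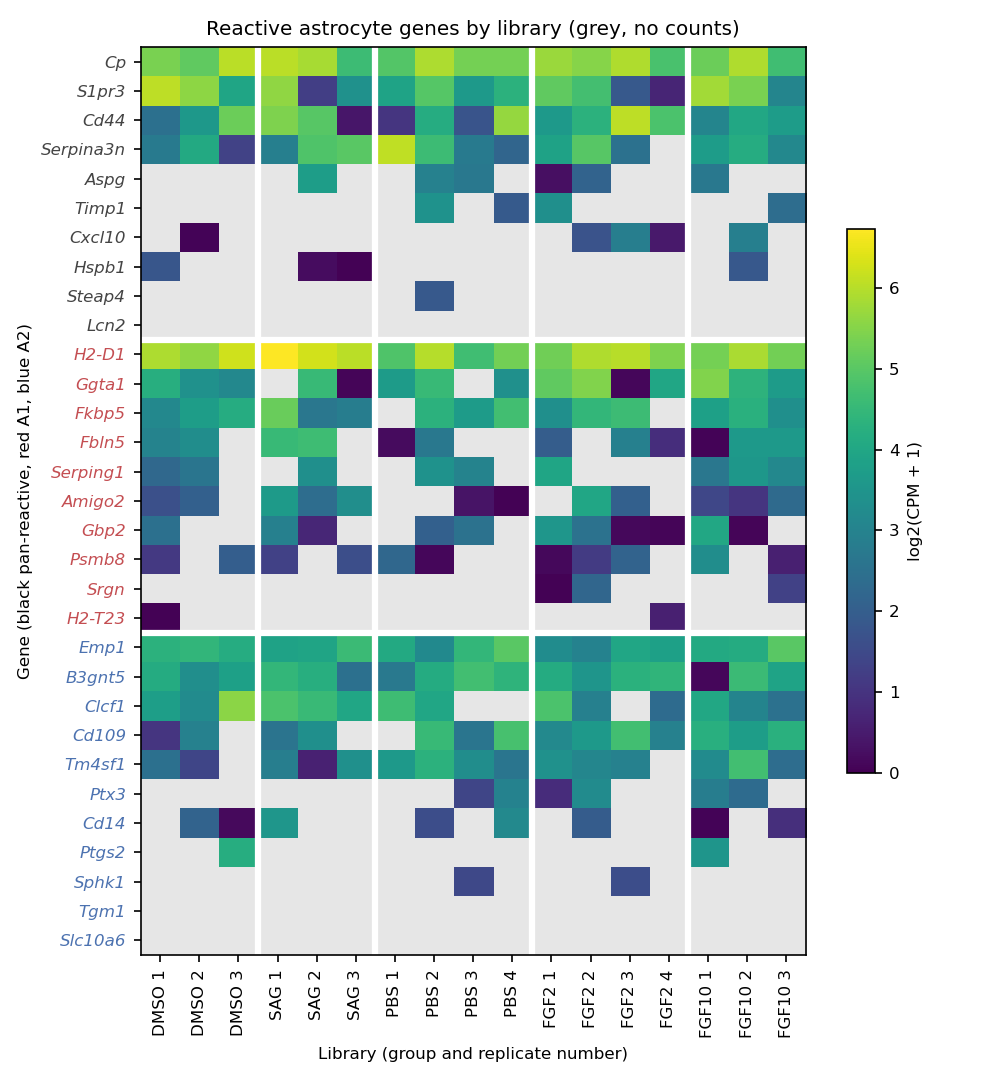
Level of each of the 31 genes (rows, ordered by mean within a panel) in each of the 17 libraries (columns), as log2(CPM + 1) in color, with grey for a library without counts. *Cp* and *H2-D1* were filled in every column, *Lcn2*, *Tgm1* and *Slc10a6* were grey in every column, and most other genes mixed grey and colored cells within a group.

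Only 6 of the 31 genes had counts in all 17 libraries, and they were the most abundant of their panels: *H2-D1*, *Cp*, *S1pr3*, *Cd44*, *Emp1* and *B3gnt5*. Most of the rest were present in some cultures and absent in others of the same group. Of the 408 values of the 24 genes, 127 (31.1%) were 0, 15 (3.68%) were 1 to 9 counts, and 235 (57.6%) were 100 or more counts. For 18 of the 24 genes, a library without a count and a library of 100 or more counts stood in 1 group. *Ptgs2*, which encodes the prostaglandin synthase COX-2, had 654 counts in DMSO 3, 269 in FGF10 1 and 0 in the other 15 libraries. *Timp1*, an inhibitor of metalloproteinases, had 345 counts in PBS 2, 87 in PBS 4, 504 in FGF2 1 and 166 in FGF10 3 and none elsewhere. *Cxcl10*, an interferon-induced chemokine, had 2 counts in DMSO 2, 40, 298 and 16 in FGF2 2, 3 and 4, and 318 in FGF10 2. Each of these 3 genes was counted in some cultures and at 0 in others of at least 1 group. Genes of all kinds showed the same. A library at 0 was found for 75% of the 24 genes and for 64.9% of the 14224 genes with a mean count of at least 10 and a mean CPM up to that of *H2-D1*. In the band of 1 to 2 CPM, the 6 reactive genes had a median of 11 libraries at 0 and the 1493 genes of all kinds also 11. In the band of 8 to 16 CPM the medians were 2 and 1.

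**Figure D2:**
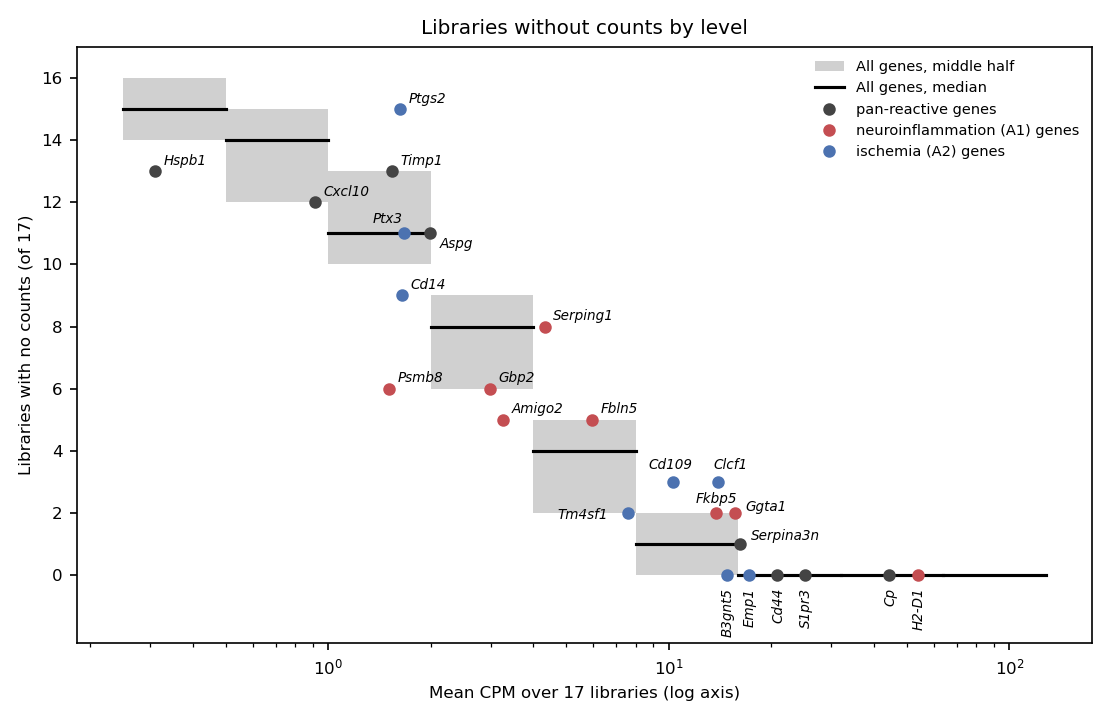
Number of the 17 libraries without a count (vertical axis) against mean CPM (horizontal axis, log scale) for the 24 reactive genes with a mean count of at least 10, colored by panel. Black lines give the median and grey boxes the middle 50% of all genes in bands of level; *Ptgs2*, at 0 in 15 libraries, lay above its band, and the 6 genes on the bottom line had counts in every library.

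Among the pan-reactive genes, *Cp*, which encodes the copper-binding ferroxidase ceruloplasmin, was the most abundant and the steadiest. It was at 46.3 ± 16.4 CPM (SD, n = 3) with DMSO, 48.1 ± 21.8 (n = 3) with SAG, 41.6 ± 12.7 (n = 4) with PBS, 45.8 ± 14.05 (n = 4) with FGF2 and 40.4 ± 17.9 (n = 3) with FGF10, and its lowest and highest libraries were at 23.4 and 64.7 CPM. The groups overlapped throughout. *S1pr3*, a receptor of sphingosine 1-phosphate, averaged 42.4 ± 26.1 CPM with DMSO, 34.3 ± 24.3 with FGF10, 19.8 ± 25.1 with SAG, 18.8 ± 8.33 with PBS and 15.4 ± 16.3 with FGF2, with n as for *Cp*. *Cd44*, the hyaluronan receptor, averaged 11.7 ± 4.03 CPM with FGF10 to 30.9 ± 24.2 with FGF2, and *Serpina3n*, a secreted protease inhibitor, 7.86 ± 7.52 with DMSO to 24.8 ± 29.1 with PBS. The groups overlapped for each of these 3 genes. *Aspg*, *Timp1*, *Cxcl10* and *Hspb1* had group means of 0 to 4.13 CPM, and no group had counts of *Aspg*, *Timp1* or *Hspb1* in all of its libraries.

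The A1 panel was led by *H2-D1*, a classical class I molecule that presents peptides to T cells, which was the highest of all 31 genes. It averaged 81.8 ± 21.1 CPM (SD, n = 3) with SAG, 60.6 ± 13.4 (n = 3) with DMSO, 50.7 ± 12.8 (n = 4) with FGF2, 45.1 ± 10.99 (n = 3) with FGF10 and 38.4 ± 17.05 (n = 4) with PBS. Neighbors in this order overlapped. The lowest SAG library was at 64.4 CPM and the highest library of the FGF experiment at 63.4 CPM. This was not a planned comparison, and the share of all genes so placed was not counted. The 2 experiments also differ in solvent, day of addition and days of treatment, which cannot be told apart. *Ggta1*, a galactosyltransferase, had group means of 7.42 to 24.6 CPM, and *Fkbp5*, a co-chaperone of the glucocorticoid receptor, of 12.4 to 15.7 CPM. The 5 group means of *Fkbp5* lay close together, although single libraries ran from 0 in PBS 1 and FGF2 4 to 35.4 CPM in SAG 1. *Fbln5*, an elastic fiber protein, had group means of 1.42 to 15.4 CPM, *Serping1*, the inhibitor of complement C1, of 2.97 to 8.002 CPM, *Amigo2*, an adhesion molecule, of 0.0787 to 8.34 CPM, *Gbp2*, an interferon-induced GTPase, of 1.52 to 5.15 CPM, and *Psmb8*, an immunoproteasome subunit, of 0.955 to 3.09 CPM. These last 5 had 5 to 8 libraries without counts each.

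Among the A2 genes, *Emp1*, a small membrane protein of epithelia, and *B3gnt5*, which starts lacto-series glycolipids, were present in every library. *Emp1* was at 18.9 ± 1.80 CPM with DMSO, 16.96 ± 5.11 with SAG, 19.0 ± 9.60 with PBS, 10.9 ± 3.77 with FGF2 and 21.4 ± 8.66 with FGF10 (SD, n as above). Group means of *B3gnt5* lay between 12.4 and 16.8 CPM, but in FGF10 1 it had 2 counts where the other 16 libraries had 142 or more. *Clcf1*, a cytokine of the IL-6 family, had group means of 9.12 to 22.5 CPM, *Cd109*, a coreceptor of TGF-beta, of 2.59 to 16.2 CPM, and *Tm4sf1*, a tetraspanin-like membrane protein, of 2.09 to 12.5 CPM. *Ptx3*, a soluble pattern recognition protein, had no counts in the 6 DMSO and SAG libraries and group means of 2.15 to 3.46 CPM in the FGF experiment. *Cd14*, a coreceptor of bacterial lipopolysaccharide, and *Ptgs2* had group means of 0.309 to 3.53 CPM and 0 to 5.75 CPM.

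Summed over the 31 genes, the libraries held 158 to 428 CPM. The sums were 278 ± 34.5 CPM (SD, n = 3) with DMSO, 320 ± 116 (n = 3) with SAG, 257 ± 79.2 (n = 4) with PBS, 273 ± 77.5 (n = 4) with FGF2 and 294 ± 70.3 (n = 3) with FGF10. Between 12 and 21 of the 31 genes had counts in a library. The 5 groups overlapped in the sum, and both the lowest sum, FGF2 4, and the highest, SAG 1, stood in treated groups.

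The first comparison asked whether SAG altered the reactive genes over its solvent. No reactive gene passed the test. Of the 17 with enough counts for edgeR to test, 0 were called at an adjusted p under 0.05 by edgeR's quasi-likelihood test, where 0.0638% of the 12538 genes tested were, and 0 had an unadjusted p under 0.05, where 5.69% of all genes did. DESeq2 also called 0. The median log2 fold change of the 17 was 0.35, beside -0.02 over all genes, with 12 above 0 and 5 below, and it was -0.04 without SAG 1 and 0.70 without SAG 3. Panel medians were 0.29 for 4 pan-reactive genes, 0.40 for 8 A1 genes and 0.17 for 5 A2 genes.

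*Amigo2* was the only reactive gene whose SAG libraries all lay above the DMSO libraries, as 5.96% of all genes did, and none lay wholly below, as 8.18% of all genes did. Its level was 11.7, 4.27 and 9.01 CPM in SAG 1 to 3 and 2.10, 3.16 and 0 CPM in DMSO 1 to 3. The DMSO counts of *Amigo2* alone, with 0 in DMSO 3, would not pass the filter on low counts. Its lack of overlap is therefore partly set by that filter. The log2 fold change was 2.27 ± 2.46 (standard error, SE), with a 95% interval of -3.13 to 7.68 (adjusted p = 1.00 from edgeR). With 3 cultures against 3, an exact permutation test cannot give less than its p of 0.1 (two-sided). *H2-D1* was at 105, 75.8 and 64.4 CPM in SAG 1 to 3 and at 58.8, 48.1 and 74.8 CPM in DMSO 1 to 3, so that only SAG 3 lay within the range of the controls and DMSO 3 within that of SAG. Its log2 fold change was 0.46 ± 0.34 (SE; interval -0.28 to 1.19; edgeR adjusted p = 1.00), and 0.23 without SAG 1, the library with the most microglial counts, whose part in the value was not tested. *Serpina3n* was at 5.87, 16.2 and 1.53 CPM in DMSO 1 to 3 and 6.54, 28.3 and 31.3 CPM in SAG 1 to 3. SAG 2 and SAG 3 lay above every control and SAG 1 did not, and the log2 fold change was 1.51 ± 1.20 (SE; edgeR adjusted p = 1.00). It was 2.60 without DMSO 2 and 1.02 without DMSO 3.

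Genes that stand near the reactive set on the same test were not called either. *H2-K1*, the other classical class I gene of this strain, was at 79.1, 68.7 and 72.4 CPM in DMSO 1 to 3 and 125, 174 and 243 CPM in SAG 1 to 3, with no overlap. Its log2 fold change was 1.32 ± 0.28 (SE; edgeR adjusted p = 0.247). *H2-T22*, a nonclassical class I gene, averaged 12.9 ± 12.1 CPM (SD, n = 3) in DMSO and 41.0 ± 19.2 CPM (n = 3) in SAG cultures, also without overlap. The DMSO counts of *H2-T22* alone, with 0 in DMSO 3, would not pass the filter on low counts. Class I genes are near copies of each other, and how reads shared between them were counted is not given in the sources used here. *Ifnar1*, a subunit of the type I interferon receptor, was higher in all 3 SAG libraries than in DMSO (44.4 ± 8.24 against 18.5 ± 5.54 CPM, SD, n = 3, log2 fold change 1.28, SE 0.56, edgeR adjusted p = 0.826).

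The classical marker of reactive astrocytes, the intermediate filament gene *Gfap*, was lower with SAG. It was at 59.9, 36.0 and 25.3 CPM in SAG 1 to 3 and at 140, 199 and 183 CPM in DMSO 1 to 3. Every SAG library lay below every DMSO library, with a log2 fold change of -2.08 ± 0.35 (SE; unadjusted p = 7.9e-05, edgeR adjusted p = 0.0854, exact permutation test p = 0.1). Of the other panel genes outside the set, *S100a10*, a calcium-binding protein, averaged 58.6 ± 7.38 CPM (SD, n = 3) in DMSO and 89.0 ± 28.7 CPM (n = 3) in SAG cultures without overlap, and *Vim*, another intermediate filament gene, averaged 1152 ± 54.2 CPM in DMSO and 1085 ± 56.5 CPM in SAG cultures. *Osmr* was at 3.17, 12.9 and 12.6 CPM in DMSO 1 to 3 and at 4.03, 0 and 0 CPM in SAG 1 to 3, with overlap. The interferon-induced GTPase *Iigp1* was at most 0.298 CPM, and the glucuronosyltransferase *Ugt1a1* had no counts in the 17 libraries. Astrocyte and ependymal markers also stood apart in this comparison. *Aldh1l1* was higher in every SAG library, *Sox9*, *Gja1* and *Glul* were lower, and so were the ependymal genes *Ccdc153*, *Dynlrb2* and *Foxj1*, with 0 called by edgeR and unadjusted p under 0.05 for 4 of 11 astrocyte and 3 of 4 ependymal genes. The SAG counts of *Ccdc153*, 0 in every library, would not alone pass the filter on low counts. The ependymal list summed to 85.2 to 154 CPM with SAG and 209 to 288 CPM with DMSO, and its part in the *Gfap* values was not tested.

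**Figure D3:**
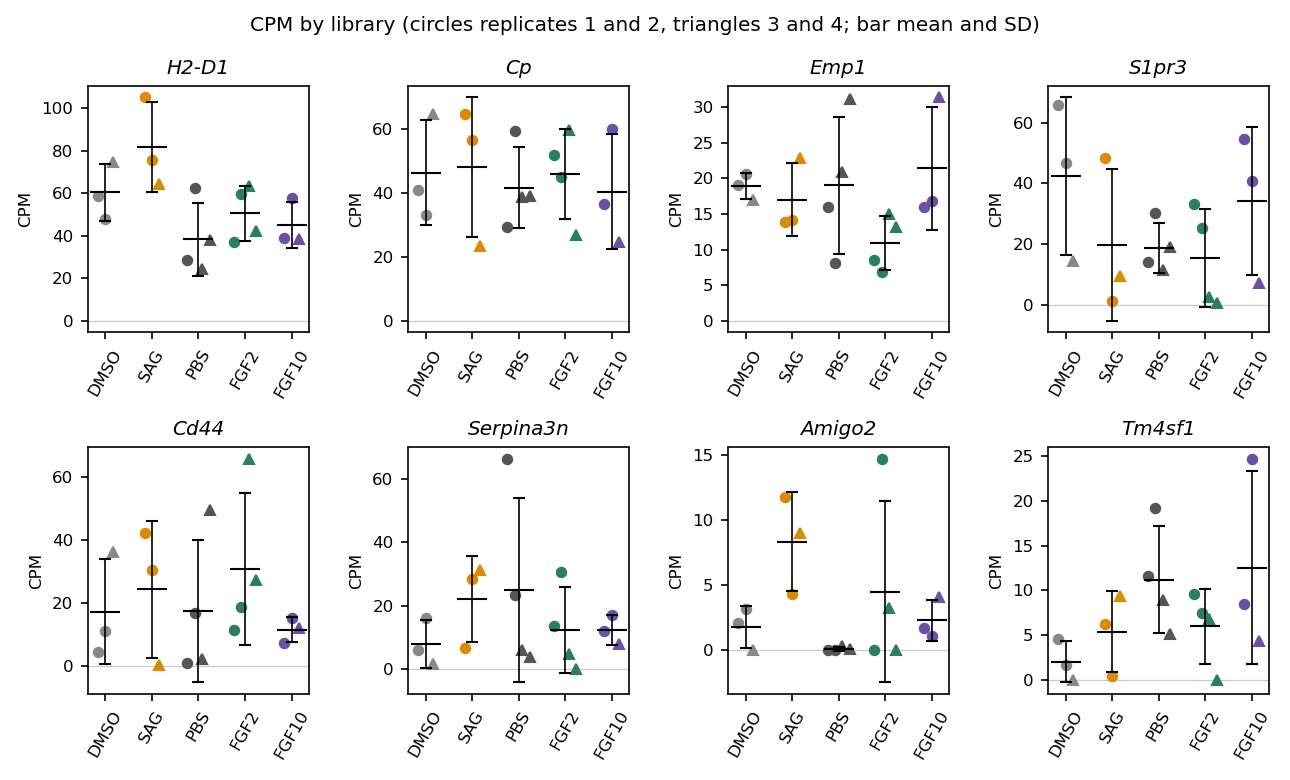
CPM of 8 reactive genes in each library (points) by group, with the mean (bar) and SD (whiskers, which reach below 0 where the spread exceeds the mean); circles are replicates 1 and 2 and triangles replicates 3 and 4. *Amigo2* was above the DMSO range in all 3 SAG libraries and at most 0.283 CPM with PBS, *Emp1* was lower in every FGF2 than in every FGF10 library, and the other panels overlapped between most groups.

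The FGF experiment asked the same of FGF2 and FGF10, which share their 4 PBS controls. With FGF2, 15 reactive genes were tested and edgeR called 0 at an adjusted p under 0.05, as for 0% of the 12744 genes, and 0 had an unadjusted p under 0.05, beside 1.75% of all genes. DESeq2 called 0 reactive genes. No reactive gene lay wholly above PBS (1.26% of all genes) or wholly below (1.18%). The median log2 fold change was -0.01, beside 0.00 over all genes. Panel medians were 0.88 for 5 A1 genes, -0.08 for 4 pan-reactive genes and -0.06 for 6 A2 genes.

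The smallest p-value belonged to *Emp1*, at 8.61, 6.91, 14.9 and 13.2 CPM in FGF2 1 to 4 and at 16.0, 8.17, 20.8 and 31.1 CPM in PBS 1 to 4. All FGF2 libraries but FGF2 2 lay within the range of the controls. The log2 fold change was -0.81 ± 0.72 (SE), with an interval of -2.37 to 0.75 (edgeR adjusted p = 1.00, two-sided exact permutation test p = 0.143, where 4 against 4 can reach 0.0286), and -0.46 without PBS 4. *H2-D1* was at 37.4, 59.8, 63.4 and 42.1 CPM with FGF2 and 28.6, 62.4, 24.3 and 38.3 CPM with PBS. Its log2 fold change of 0.40 ± 0.38 (SE; edgeR adjusted p = 1.00) was 0.73 without PBS 2, 0.23 without PBS 3, 0.10 within replicates 1 and 2 and 0.74 within replicates 3 and 4. Of the 15 genes *Cp* had the narrowest interval, -0.66 to 0.93 on the log2 scale around 0.13.

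With FGF10, 21 reactive genes were tested. EdgeR called 0, as for 0% of the 13309 genes tested, 0 had an unadjusted p under 0.05, beside 2.29% of all genes, and DESeq2 called 0. The median log2 fold change was 0.17, beside 0.00 over all genes, with panel medians of 1.28 for 8 A1 genes, 0.16 for 7 A2 genes and -0.67 for 6 pan-reactive genes. The SE of the A1 genes ran from 0.43 for *H2-D1* to 3.08 for *Psmb8*. *Amigo2* lay above PBS in every FGF10 library, as 2.82% of all genes did, and no reactive gene lay wholly below, as 1.98% did. It was at 1.70, 1.07 and 4.05 CPM in FGF10 1 to 3, which are 44, 52 and 155 counts, and at 0, 0, 0.283 and 0.0315 CPM in PBS 1 to 4, which are 0, 0, 10 and 1 counts. *Amigo2* entered this comparison, and the A1 median, through its FGF10 counts, since the PBS counts alone would not pass the filter on low counts. Its lack of overlap is therefore partly set by that filter. For FGF2 against PBS it did not pass the filter and was not tested. The log2 fold change of 4.79 had an SE of 3.04 (edgeR adjusted p = 1.00, exact permutation test p = 0.0571, as low as 3 against 4 can reach) against controls near 0. It was 7.41 without PBS 3, 7.08 with the pair of replicates as a term, 8.78 within replicates 1 and 2 and 4.64 within 3 and 4. The FGF2 libraries held 0, 258, 151 and 0 counts and overlapped PBS. *S1pr3* was at 54.6, 40.8 and 7.34 CPM with FGF10 and 14.1, 30.3, 11.5 and 19.2 CPM with PBS. FGF10 1 and 2 lay above all controls and FGF10 3 below them, with a log2 fold change of 0.87 ± 0.68 (SE; edgeR adjusted p = 1.00). It was 0.34 without FGF10 1 and 1.34 without FGF10 3, and, since FGF10 has 1 library in replicates 3 and 4 where PBS has 2, also 0.34 with the pair of replicates as a term, 1.10 within replicates 1 and 2 and -1.08 within 3 and 4.

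Set against each other, FGF2 and FGF10 gave the reactive gene with the smallest p-value of these comparisons, *Cd44*. Its level was 11.4, 19.0, 65.8 and 27.4 CPM in FGF2 1 to 4 and 7.36, 15.3 and 12.3 CPM in FGF10 1 to 3. FGF2 2, 3 and 4 lay above every FGF10 library and FGF2 1 did not. The log2 fold change was 1.40 ± 0.69 (SE), with an interval of -0.09 to 2.90 (unadjusted p = 0.0637, adjusted p = 1.00 from edgeR), and it was 0.73 without FGF2 3, 0.42 within replicates 1 and 2 and 1.92 within 3 and 4. *Emp1* was lower in every FGF2 than in every FGF10 library (16.0, 16.7 and 31.4 CPM in FGF10 1 to 3), as were 2.54% of all genes, with a log2 fold change of -0.97 ± 0.72 (SE; edgeR adjusted p = 1.00, exact permutation test p = 0.0571), and -0.59 without FGF10 3. No reactive gene lay wholly above, beside 2.39% of all genes. Of 19 reactive genes tested, edgeR called 0 (0% of 13493 genes), 0 had an unadjusted p under 0.05 (2.4% of all genes) and DESeq2 called 0. By panel, the median log2 fold change was -0.26 for 8 A1 genes, -0.46 for 6 A2 genes and 0.03 for 5 pan-reactive genes.

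The vehicle cultures were compared to see how far the reactive genes differed between the 2 experiments without SAG or FGF. PBS and DMSO cultures differ in solvent, in the day of addition and in the days of treatment, which cannot be told apart. Of 18 reactive genes tested, edgeR called 0 (0% of 13271 genes), 0 had an unadjusted p under 0.05 (4.37% of all genes), DESeq2 called 0, and the median log2 fold change was 0.03. By panel, the median was -0.31 for 8 A1 genes, 0.75 for 6 A2 genes and -0.05 for 4 pan-reactive genes. *Tm4sf1* was at 11.6, 19.2, 8.90 and 5.11 CPM in PBS 1 to 4 and 4.60, 1.67 and 0 CPM in DMSO 1 to 3. All PBS libraries lay above all DMSO libraries, as for 2.92% of all genes, while no reactive gene lay wholly below, as for 3.5% of all genes. The DMSO counts of *Tm4sf1* alone, with 0 in DMSO 3, would not pass the filter on low counts. Its lack of overlap is therefore partly set by that filter. The log2 fold change of *Tm4sf1* was 2.44 ± 1.93 (SE; edgeR adjusted p = 1.00, exact permutation test p = 0.0571), and 3.75 without DMSO 1. *S1pr3* was at 66.0, 46.7 and 14.4 CPM in DMSO 1 to 3, against the PBS values above. DMSO 1 and 2 lay above all PBS libraries and DMSO 3 within their range, for a log2 fold change of -1.15 ± 0.60 (SE; unadjusted p = 0.0753, edgeR adjusted p = 1.00), and -0.69 without DMSO 1. *H2-D1* was lower in 3 of 4 PBS libraries than in every DMSO library, with a log2 fold change of -0.64 ± 0.41 (SE) and an interval of -1.51 to 0.23 (edgeR adjusted p = 1.00), and -0.97 without PBS 2.

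**Figure D4:**
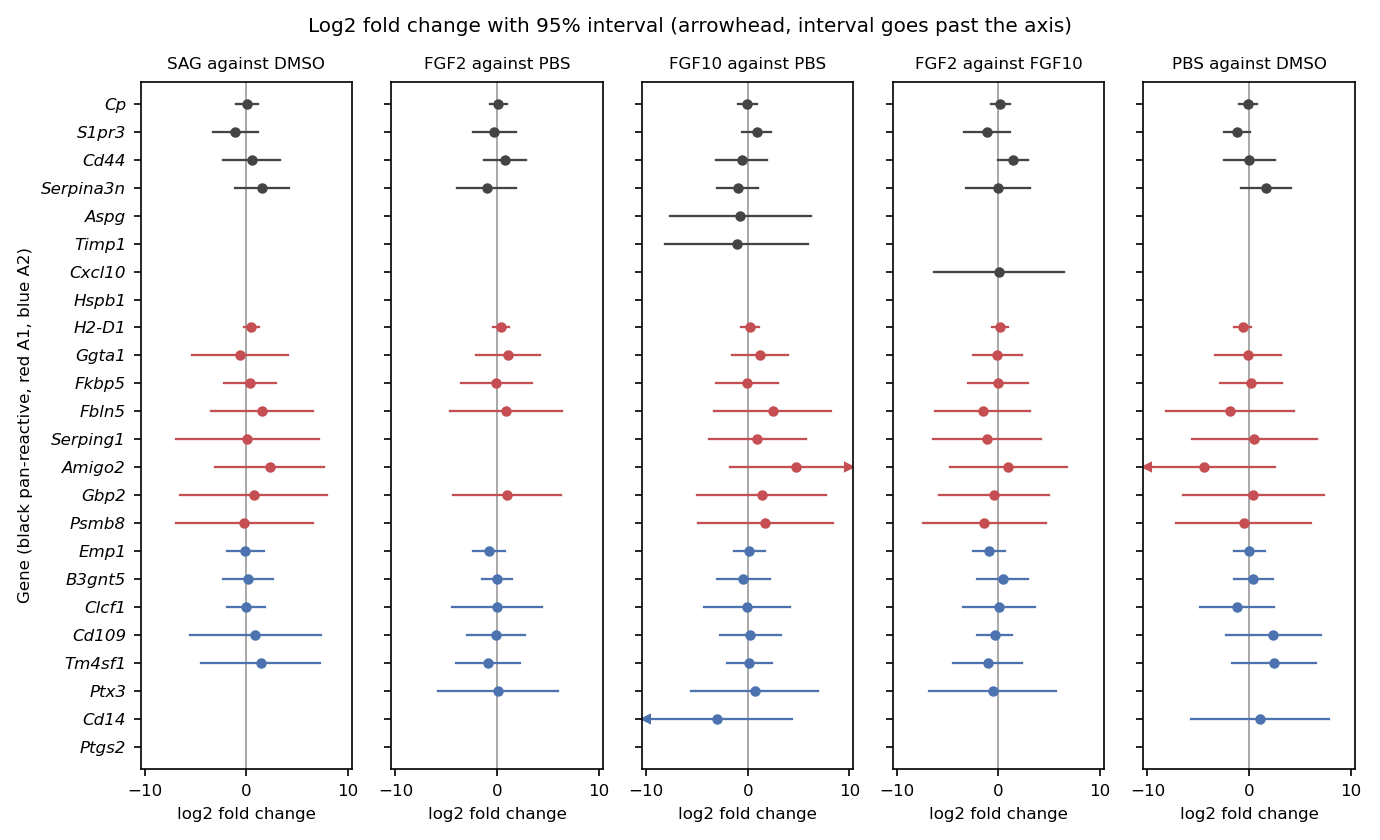
Log2 fold change (points) with 95% interval (lines) from edgeR's quasi-likelihood test for the reactive genes tested in each of the 5 comparisons, colored by panel; an empty row is a gene that did not pass the filter on low counts. All intervals include 0, from the narrowest, *H2-D1* with SAG, to the intervals of *Amigo2* and *Cd14* that run past the axis.

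The intervals differed widely between genes. Standard errors on the log2 scale ran from 0.34 to 3.31 in the SAG comparison and from 0.37 to 2.73 for FGF2, with medians of 1.28 and 1.34 over the reactive genes beside 0.86 and 0.67 over all genes tested. For *Cp* the intervals ran from -0.66 to 0.93 with FGF2 and from -0.97 to 0.88 with FGF10, both of which leave out a log2 difference of 1 in either direction, and from -0.9999 to 1.15 with SAG. For *H2-D1* the intervals reached 1.19, 1.22 and 1.15 upward and -0.28, -0.43 and -0.69 downward. For genes such as *Amigo2*, *Gbp2*, *Psmb8* and *Serping1*, differences of many fold in either direction lay within the interval and were not detectable with these cultures.

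In the FGF experiment several reactive genes differed by replicate number in the same direction in every group. The labels give the numbers without saying what they mark, and the split into replicates 1 and 2 against 3 and 4 was known from earlier results of these data, so it is a description. *Serpina3n*, *Ggta1*, *Clcf1* and *Tm4sf1* were higher in replicates 1 and 2 than in 3 and 4 in all 3 groups, and *Emp1* was lower. These are 4 and 1 of the 22 genes tested, beside 4.09% and 4.25% of 14553 genes of all kinds. *Serpina3n* averaged 44.9 CPM in PBS 1 and 2 and 4.73 CPM in PBS 3 and 4, 22.2 and 2.34 CPM with FGF2, and 14.6 CPM in FGF10 1 and 2 and 7.78 CPM in FGF10 3. *Ggta1* averaged 17.05 and 4.73 CPM with PBS, 37.9 and 7.44 CPM with FGF2 and 30.97 and 11.9 CPM with FGF10. *Emp1* averaged 12.1 and 26.0 CPM with PBS, 7.76 and 14.1 CPM with FGF2 and 16.4 and 31.4 CPM with FGF10. Sums of cell type markers, and *Gfap*, differed by the same numbers. *Gfap* was at 257 to 401 CPM in replicates 1 and 2 and 10.9 to 87.9 CPM in 3 and 4. The 12 astrocyte markers summed to 5851 to 6550 and 4516 to 4817 CPM. Not every astrocyte marker followed the sum. *Aldh1l1* went the other way in all 3 groups, at 167 to 246 CPM in replicates 1 and 2 and 303 to 432 CPM in 3 and 4. The 10 endothelial or mural markers summed to 158 to 355 and 41.0 to 98.7 CPM, the 9 neuronal markers to 112 to 202 and 30.9 to 58.2 CPM, and the 5 ependymal markers to 349 to 587 and 82.9 to 230 CPM. Most of the endothelial or mural sum was *Acta2*, at 140 to 315 and 41.0 to 80.8 CPM. *Cldn5*, *Cdh5*, *Kcnj8* and *Vtn* of that list were at 0 in all 17 libraries. The part of these marker lists in the values of the reactive genes was not tested.

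Several cytokines known to induce reactive genes had no counts. Of 12 cytokine and complement genes, *Il1a*, *Il1b*, *Tnf*, *Il6* and *Cxcl1* had no counts in all 17 libraries, and the list summed to 0 to 9.08 CPM, with its highest sum in FGF10 2, where *Lif* was at 8.79 CPM. *Clcf1*, the IL-6 family cytokine of the A2 panel, is not on that list. *C3*, the complement component often used to mark the A1 state, was highest in FGF2 2, at 1.54 CPM. Most genes of the machinery that would receive such signals had counts. Of 23 receptors and mediators, 22 had a mean count of at least 10, and the list summed to 989 to 1284 CPM. Some were absent from part of the libraries, such as *Il1r1*, at 0 in 6 of 17, and *Myd88*, at 0 in 7. *Stat3*, the transcription factor downstream of IL-6 family receptors, was at 284 to 588 CPM, *Il6st*, their shared receptor subunit, at 24.1 to 113 CPM and *Jak1*, their kinase, at 63.2 to 182 CPM. *Tlr4*, the receptor of bacterial lipopolysaccharide, was at 0 in all 17 libraries. Of the 22 tested in each comparison, edgeR called 0, with unadjusted p under 0.05 for 1 with SAG, 0 with FGF2, 1 with FGF10, 0 between FGF2 and FGF10 and 1 between the vehicles. The IL-1 receptor gene *Il1r1* was at 15.5, 20.7, 9.22 and 5.62 CPM in FGF2 1 to 4 and at 0, 4.65, 0 and 0 CPM in PBS 1 to 4. All FGF2 libraries lay above all PBS libraries, as for 1.26% of all genes, with a log2 fold change of 3.46 ± 2.19 (SE; edgeR adjusted p = 1.00). The PBS counts of *Il1r1* alone would not pass the filter on low counts. Its lack of overlap is therefore partly set by that filter. *Jak1* was higher in every FGF10 than in every PBS library (117 ± 11.8, n = 3, against 81.1 ± 4.36 CPM, n = 4, SD, log2 fold change 0.53, SE 0.24, edgeR adjusted p = 1.00). With SAG, *Il1r1* and *Cebpb*, a transcription factor of the acute phase, lay wholly below DMSO at 0.0645 and 1.46 against 4.19 and 8.62 CPM. The same held for 8.18% of all genes. The SAG counts of *Il1r1* and of *Cebpb* alone would not pass the filter either.

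Marker genes of other cell types were also not called by edgeR in any comparison, and those without overlap between groups are given by their means beside the reactive genes. With SAG, the oligodendrocyte lineage gene *Sox10* (42.9 against 94.3 CPM), the neuronal genes *Dcx* (1.34 against 20.1) and *Gad1* (1.41 against 12.6) and the mural gene *Pdgfrb* (2.15 against 21.7) lay below DMSO, as did 8.18% of all genes. Of the tested genes of these lists, 2 oligodendrocyte lineage genes were higher and 5 lower, 2 neuronal genes higher and 4 lower, and 1 endothelial or mural gene higher and 2 lower. The SAG counts of *Dcx*, *Gad1* and *Pdgfrb* alone would not pass the filter on low counts. With FGF2, the neuronal gene *Stmn2* lay above PBS (8.07 against 1.30 CPM) and the endothelial gene *Kdr* below (0.965 against 8.64), beside 1.26% and 1.18% of all genes. Of the tested genes of these lists, 4 neuronal genes were higher and 3 lower, and 0 endothelial or mural genes were higher and 3 lower. The FGF2 counts of *Kdr* alone would not pass the filter on low counts. With FGF10, the astrocyte genes *Aqp4* (178 against 98.8 CPM) and *Fgfr3* (72.4 against 51.2), the TNF receptor gene *Tnfrsf1a* (51.8 against 35.0) and the collagen gene *Col1a2* (1.92 CPM, against 0 in all PBS libraries) lay above PBS, and the class I gene *H2-Q4* (0.226 against 5.59) lay below. Over all genes these shares were 2.82% and 1.98%. Of the tested genes, 5 astrocyte genes were higher and 6 lower, and 3 fibroblast or meningeal genes higher and 1 lower. The PBS counts of *Col1a2* and the FGF10 counts of *H2-Q4* alone would not pass the filter. Between the vehicles, *Aldh1l1* (307 against 162 CPM), *Gja1* (229 against 119), *S100b* (15.1 against 0.727), *Stat3* (419 against 305), *Vim* (1344 against 1152), *Enpp6* (20.2 against 5.83) and *Kdr* (8.64 against 2.29) lay above DMSO in PBS, and *Fgfr3* (51.2 against 119), *Glul* (1159 against 1569) and the lysosomal gene *Cd68* (0 in all PBS libraries, against 3.52) lay below. Over all genes these shares were 2.92% and 3.5%. Of the tested astrocyte genes, 6 were higher and 5 lower. The DMSO counts of *Enpp6* and *Kdr* and the PBS counts of *Cd68* alone would not pass the filter. The part of these cells in the values of the reactive genes was not tested.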

How the data were processed

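RNA was purified from 17 astrocyte cultures and sequenced as 3′-end libraries (QuantSeq FWD), and the submitters' processing notes name STAR, DESeq2 and GRCm38. The authors aligned reads and counted them per gene, and the deposited values are whole-number counts, 1 column per library, without normalization. The annotation, the strand setting of the counting and any removal of PCR copies are not given in the sources used here, so a molecule may be counted more than once. The 114 spike-in rows (at most 86 counts in a library) were left out. Groups came from the labels. The members and lists were chosen with earlier results of these data known.

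Levels are CPM after TMM over the 17 libraries. In R 4.3.3, each comparison was fitted in edgeR 4.0.16 with only its own groups, filterByExpr (minimum count 10, minimum total 15), TMM, the quasi-likelihood test and Benjamini-Hochberg adjustment over all genes tested, after a check on simulated counts. A gene was called at an adjusted p under 0.05. Standard errors were taken from the F statistic, and intervals are 95%. Values in every library are given for genes that were called or did not overlap between groups and for the 2 smallest p-values per comparison, and single genes also have a two-sided exact permutation test of CPM. Of genes outside the set, those of the lists without overlap are named, at most 3 in each direction. The examples of values at 0 (*Ptgs2*, *Timp1*, *Cxcl10*, *Il1r1*, *Myd88*) were chosen after their values were seen. So were the levels of *Hepacam*, *C3*, *Vim*, *Osmr*, *Acta2*, *Stat3* and *Il6st*. DESeq2 1.42.0 was an alternative, as were other size factors, filters, the study's threshold (adjusted p under 0.01, log2 fold change above 1), all groups in 1 fit, the replicate block, the pair of replicates as a term and each library left out. Exons of 9 of the 31 genes overlap another gene in GENCODE M21, 8 of them on the opposite strand, among them *Cp*, *S1pr3* and *Amigo2*.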

Additional observations from a re-analysis of the deposited data

Results flagged for a closer look

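In groups of 4 libraries, a single library stood far from the other 3 in 8 of the 43 groups of the 24 reactive genes with any counts (18.6%). The rule flags about 1 in 20 groups of normally spread values by chance, and it flagged 25.2% of such groups over the 14224 genes with a mean count of at least 10 and a level up to that of *H2-D1*. The level of *Timp1* was 9.31 CPM in FGF2 1 and 0 in the other 3, that of *Serping1* was 14.5 CPM in FGF2 1 and 0 in the other 3, and that of *Cd14* was 2.91 CPM in FGF2 2 and 0 in the other 3. *Aspg* was at 3.43 CPM in FGF2 2 with the next library at 0.203 CPM, and *Ptx3* was at 8.51 CPM in FGF2 2 with the next at 0.794 CPM. With PBS, *Psmb8* was at 3.73 CPM in PBS 1 with the next at 0.0845 CPM, *Fbln5* was at 5.52 CPM in PBS 2 with the next at 0.143 CPM, and *Amigo2* was at 0.283 CPM in PBS 3 with the next at 0.0315 CPM.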

How the results depend on the processing

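No reactive gene was called in the 5 comparisons under any alternative, among them size factors from DESeq2, no filter, a filter on a mean count of 10, DESeq2's Wald test, all 5 groups in 1 fit, the replicate block, the threshold of the study, the pair of replicates as a term in the FGF experiment, and each library left out. The direction of the medians changed with the libraries left out in every comparison but FGF10 against PBS. Leaving out each library in turn gave -0.04 to 0.70 with SAG, -0.32 to 0.26 with FGF2, 0.00 to 0.51 with FGF10, -0.68 to 0.08 for FGF2 against FGF10 and -0.15 to 0.43 for PBS against DMSO. The correlations of same-numbered libraries ran from -0.02 to 0.13, and not every one passed 0.1 in any comparison. Such low values cannot show whether same-numbered cultures share a preparation. In the FGF experiment, every best match lay within the same pair of replicates, 1 and 2 or 3 and 4. With the replicate block the medians were 0.39, 0.45, 0.72, -0.27 and -0.41 in the same order, and the block changed no call. At these depths 31.1% of the values of the 24 genes were 0, and what share of them depth sets was not tested. Of the named genes only *S1pr3* with FGF10 changed direction under an alternative, to -1.08 within replicates 3 and 4, where FGF10 has 1 library that is assumed to vary like the others.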
